A study of Homo sapiens with 30 samples.

Results

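The nuclear genes of respiratory complex I, its subunits and assembly factors, were followed in 30 arrays of 2 human lymphoblastoid lines given different radiation doses. Members were the probe sets whose single annotated symbol begins NDUFA, NDUFB, NDUFC, NDUFS, NDUFV or NDUFAF with a number, together with NDUFAB1. The rule used names only and no measured value. It gave 40 probe sets of 33 genes, of 22283 probe sets in all. One probe set of the antisense RNA NDUFB2-AS1 begins with the same letters and was left out. A probe set is a group of short probes for 1 transcript region, and 6 genes had more than 1. Probe sets of 1 gene are told apart here by their signal, as the brighter or the dimmer, which says nothing about transcript amounts, and the plots give their identifiers. GM15036 and GM15510 are established lines of B cells that carry Epstein-Barr virus, which immortalised them, and were kept in suspension culture, in MEM with serum. Each was irradiated with caesium-137 at 1, 2.5, 5, 7.5 or 10 cGy and measured on 3 arrays for each dose, which makes 10 groups. Both lines thus carry the virus, and each group is a single line. The labels give the doses in cGy, the unit used here, whereas the series design gives these numbers in Gy. With no unirradiated group among the arrays analysed here, 1 cGy of the same line served as the reference for each dose, and the 4 comparisons of a line share those 1 cGy arrays. Whether replicate arrays stem from separate cultures is not stated, and p-values thus measure the spread between arrays only, which may be technical. How long after irradiation RNA was isolated is not stated in the sources used here.

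Complex I is the first and largest enzyme of the mitochondrial respiratory chain. It takes electrons from NADH, passes them through a flavin and a row of iron-sulfur clusters to ubiquinone, and pumps protons across the inner mitochondrial membrane. Its matrix arm carries the electron path, its membrane arm the proton path, and the core subunits of the membrane arm are encoded by mitochondrial DNA. The nuclear genes measured here encode the core of the matrix arm, accessory subunits of both arms, and assembly factors, which build the complex but are not part of the finished enzyme. In proliferating B cells the respiratory chain supplies ATP and keeps NADH oxidised for biosynthesis. Because the arrays measure RNA of whole cultures, fewer cells with a transcript and less transcript per cell cannot be told apart.

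The promoters of 4 members are shown because the main results turn on these genes. NDUFA13 and NDUFS1 were past the threshold at the same doses of GM15510 in opposite directions, NDUFA9 fell in GM15036, and NDUFB2 was past the threshold in both lines. Each line below is the 250 bases upstream of the gene's start, read 5′ to 3′ on the gene's strand, from RefSeq with assembly GRCh38.p14. Capitals mark matches to the motifs named after them.
NDUFA13: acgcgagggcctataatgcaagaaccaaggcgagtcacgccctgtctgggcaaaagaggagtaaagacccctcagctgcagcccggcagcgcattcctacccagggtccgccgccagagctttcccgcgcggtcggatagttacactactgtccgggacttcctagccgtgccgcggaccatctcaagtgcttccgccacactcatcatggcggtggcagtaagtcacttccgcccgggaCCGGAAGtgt
NDUFS1: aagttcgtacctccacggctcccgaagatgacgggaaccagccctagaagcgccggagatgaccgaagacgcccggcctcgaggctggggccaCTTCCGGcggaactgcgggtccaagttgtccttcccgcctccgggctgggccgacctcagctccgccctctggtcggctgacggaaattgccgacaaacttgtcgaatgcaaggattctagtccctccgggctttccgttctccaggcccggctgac
NDUFA9: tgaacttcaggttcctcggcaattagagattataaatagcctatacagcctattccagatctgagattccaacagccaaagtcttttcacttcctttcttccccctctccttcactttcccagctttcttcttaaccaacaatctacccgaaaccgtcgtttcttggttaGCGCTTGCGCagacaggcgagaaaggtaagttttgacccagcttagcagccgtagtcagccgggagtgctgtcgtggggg
NDUFB2: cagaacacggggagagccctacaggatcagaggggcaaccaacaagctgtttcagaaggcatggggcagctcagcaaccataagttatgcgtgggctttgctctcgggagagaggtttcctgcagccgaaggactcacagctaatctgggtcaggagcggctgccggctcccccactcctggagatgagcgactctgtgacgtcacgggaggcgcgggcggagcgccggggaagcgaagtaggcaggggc
The NDUFA13 sequence lies at chr19:19515975-19516224 on the plus strand, that of NDUFS1 at chr2:206159445-206159694 on the minus strand, that of NDUFA9 at chr12:4648864-4649113 on the plus strand and that of NDUFB2 at chr7:140696458-140696707 on the plus strand. The motif searched for ETS factors such as GABP was CCGGAAG, on both strands. It began 10 bases upstream of the NDUFA13 start and, on the reverse strand, 157 bases upstream of the NDUFS1 start. The motif searched for NRF1 is named only. It matched on the reverse strand of NDUFA9, from 80 bases upstream of the start, where the capitals are the reverse complement of the motif, with any base allowed at the fifth capital. NDUFB2 held no match to either of these or to AAGATGGC for YY1 and GGGCGGGG for Sp1 in the printed bases. Promoters of 32 of the 33 member genes were matched by gene ID, each with 250 bases before and 50 after the start. The ETS motif stood in 6 of the 32 (18.8%, against 10.3% of all 35116 promoters), the NRF1 motif in 5 (15.6% against 5.78%), the YY1 motif in 6 (18.8% against 2.89%) and the Sp1 motif in 8 (25% against 22.8%). Each member gene entered with a single promoter, whereas all listed promoters were counted without selecting by gene or gene class. The shares are thus of unlike sets. NDUFA9 held both the NRF1 and the YY1 motif, the latter within the 50 bases not printed. The genes with the ETS motif were NDUFA1, NDUFA13, NDUFAF4, NDUFB7, NDUFS1 and NDUFS3. Those with the NRF1 motif were NDUFA3, NDUFA8, NDUFA9, NDUFAF5 and NDUFB4. Both lists held members with and without a call against 1 cGy. These are descriptions of letters in a window and no evidence of binding.

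The arrays differed in brightness, here the trimmed mean of the unscaled signal, from 14.1 to 112. The group means ran from 69.6 at 1 cGy to 22.1 at 10 cGy in GM15036, and in GM15510 from 69.4 at 1 cGy through 18.7 at 2.5 cGy and 39 at 5 cGy to 89.1 at 10 cGy. The log2 ratio of 3′ to 5′ signal of the control transcript ACTB, a sign of RNA quality, was 4.34 to 4.71 at 1 cGy in GM15036 and 4.97 to 5.92 at all higher doses, without overlap. In GM15510 it was 3.18 to 4.04 at 1 cGy, 3.95 to 4.93 at 2.5 cGy, 3.43 to 5.52 at 5 cGy, 3.35 to 4.02 at 7.5 cGy and 5.06 to 5.25 at 10 cGy, where it did not overlap with 1 cGy. That of GAPDH lay between 2.17 and 3.1 in all arrays. In GM15036 it was 2.32 to 2.62 at 1 cGy and 2.73 to 2.96 at 10 cGy, without overlap. At every other dose it overlapped with 1 cGy of the same line. The ACTB ratio thus moved with every comparison in GM15036 and with that at 10 cGy in GM15510. The GAPDH ratio moved with that at 10 cGy in GM15036, and the part of either ratio in the results was not tested. Both ratios were 2.17 or more in every array, so the 3′ signal was the stronger throughout. The bearing of this 3′ bias on probe sets of the same gene that disagree was not tested. Values below are scaled signals, in which every array has the same trimmed mean, and differences are of log2(scaled signal + 4), which understates the change of dim probe sets. In median centring the unscaled arrays were instead centred on their median log2 value, and this moved the median of all probe sets against 1 cGy to −0.38 at 10 cGy in GM15036 and to −0.50 and −0.29 at 2.5 and 5 cGy in GM15510. Centring after scaling moved it to −0.20, −0.28 and −0.16. Every signed change below is therefore relative to the scaling used. Results were also computed with brightness as a covariate and, chosen after seeing the data, without the 5 dimmest arrays, of which 2 were at 10 cGy in GM15036, 2 at 2.5 cGy and 1 at 5 cGy in GM15510. The arrays carried B cell RNA. All 6 measured B cell markers were above the filter, with summed scaled signals of 1280 to 2090 per array, and of the other cell types 1 of 6 T and NK cell markers (summed 21.9 to 87.5), 0 of 5 monocyte markers (7.66 to 47.2), 1 of 2 erythroid markers (3.92 to 26.7) and 2 of 5 fibroblast markers (30.5 to 88.8) were. Arrays of a group correlated at 0.901 or more, and no pair held identical values.

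Under the scaling used, complex I probe sets past the threshold went in both directions over the doses. This balance depended on the scaling, as given in the next paragraph, and movement as a block was not tested. After the dimmest 40% of probe sets were left out, 35 complex I probe sets of 31 genes were tested, and over the 8 comparisons with 1 cGy they gave 22 differences past an adjusted p of 0.05, 14 higher and 8 lower. These fell on 14 probe sets of 12 genes, and in all 22 the 3 arrays of the dose did not overlap with the 3 arrays at 1 cGy. That describes calls already selected by their p-value and is no added support. The share without overlap among all tested probe sets was not computed. In GM15036, 0 members passed limma's test at 2.5 cGy, where 0.548% of all tested probe sets passed (0.12% higher, 0.428% lower), and 0 at 5 cGy, where 0.143% did (0.0525% higher, 0.09% lower). With unadjusted p under 0.05 there were 1 higher and 4 lower at 2.5 cGy, and 3 and 2 at 5 cGy. The share of all probe sets at this unadjusted threshold was not computed, so these counts are not read as a response. At 7.5 cGy 3 were higher and 0 lower, 8.57% of members beside 3.22% of all (1.27% higher, 1.95% lower). At 10 cGy 3 were higher and 5 lower, 22.9% of members beside 11.7% of all (4.39% higher, 7.35% lower). The members' median change was −0.08, −0.02, 0.20 and 0.13 at the 4 doses, beside 0.026, −0.006, −0.003 and 0.030 for all tested probe sets.

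In GM15510, 4 members were higher and 1 lower at 2.5 cGy, 14.3% of members beside 9.49% of all (3.92% higher, 5.57% lower). At 5 cGy 2 were higher and 1 lower, 8.57% beside 4.19% of all (2.08% higher, 2.12% lower). At 7.5 cGy 0 passed limma's test beside 1.79% of all (1.04% higher, 0.743% lower). With unadjusted p under 0.05 there were 3 higher and 4 lower, again without a share of all probe sets to set beside them. At 10 cGy 2 were higher and 1 lower, 8.57% of members beside 5.91% of all (3.09% higher, 2.82% lower). The median changes were 0.06, −0.09, −0.09 and 0.08, beside −0.011, −0.006, −0.009 and −0.005 for all. The balance of directions moved with the scaling. Counts under other settings, here and below, are of members only, without the share of all probe sets under each setting. The centred settings also moved the median of all probe sets, so such counts do not set complex I apart from them. Median centring gave 0 higher and 15 lower members at 10 cGy in GM15036, and in GM15510 0 higher and 21 lower at 2.5 cGy, 0 and 6 at 5 cGy, and 2 and 0 at 10 cGy. Centring after scaling gave 0 and 9, 1 and 8, 0 and 2, and 2 and 1 in the same order. Both left 0 members past the threshold at 7.5 cGy in GM15036. Quantile normalization gave 7 higher and 2 lower at 2.5 cGy in GM15510 and 2 and 0 at 5 cGy. The count at 10 cGy in GM15036 was 4 without 1 cGy replicate c and 3 without 10 cGy replicate b. At 7.5 cGy in GM15036 it was 1 without each of 1 cGy replicate b, 7.5 cGy replicate b and 7.5 cGy replicate c, and at 5 cGy in GM15510 it was 1 without each of 1 cGy replicates 1 and 3 and 5 cGy replicates 1 and 3. At 10 cGy in GM15510 it was 5 without 7.5 cGy replicate 1, an array that enters only the shared estimate of spread.

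**Figure D1:**
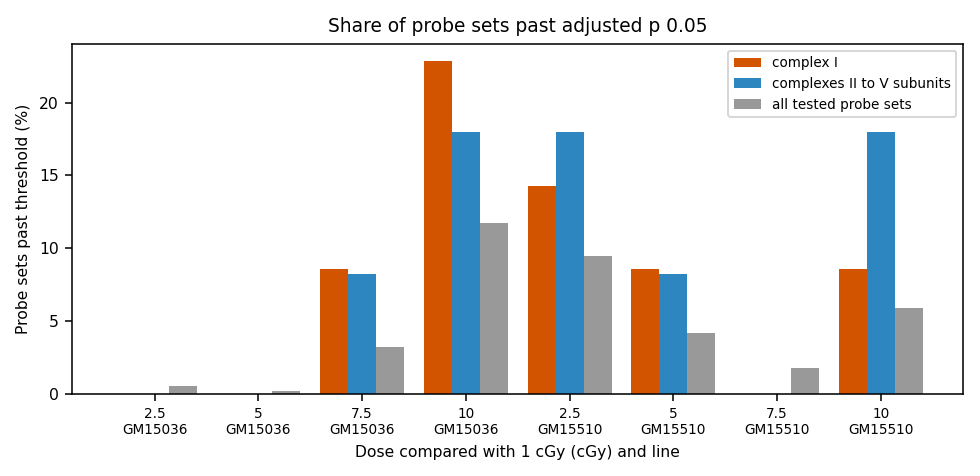
Share of tested probe sets past an adjusted p of 0.05 (vertical axis, percent) in each comparison of a dose with 1 cGy (horizontal axis, dose in cGy and line), for complex I (35 probe sets), subunits of complexes II to V (61) and all 13331 tested probe sets. Complex I reached 22.9% at 10 cGy in GM15036, where all probe sets reached 11.7%, and 0 at 2.5 and 5 cGy in GM15036 and 7.5 cGy in GM15510.

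**Figure D2:**
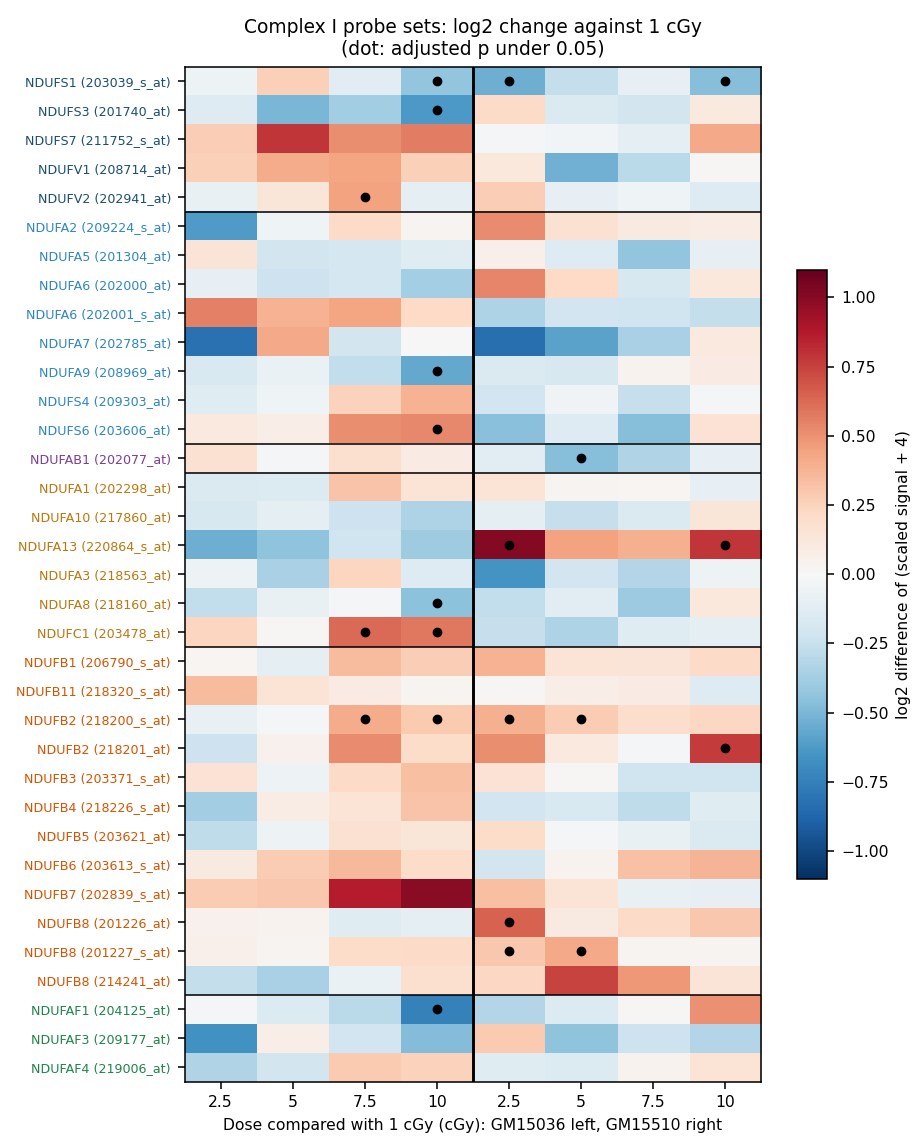
Each cell is the log2 difference of (scaled signal + 4) between a dose and 1 cGy of the same line, for the 35 tested complex I probe sets (rows, label colour and horizontal lines give the role, from core subunits at the top to assembly factors at the bottom) and 8 comparisons (columns, dose in cGy). A dot marks an adjusted p under 0.05, and the 8 dots among the NDUFB rows all stand on higher values under the scaling used, several of which turn negative under median centring.

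Calls are counted by role next, as a description. Over the 8 comparisons 2% of all tests on all probe sets were past the threshold as higher and 2.63% as lower, beside 5% and 2.86% of the 280 on complex I. The 12 probe sets of distal membrane arm subunits gave 8 calls over the 8 comparisons, all higher (8.33% of its tests), from NDUFB2 and NDUFB8, and its other 7 genes gave 0 calls in 56 tests. The 5 core subunits gave 1 higher and 4 lower, the 8 matrix arm accessory probe sets 1 higher and 1 lower, the 6 proximal membrane arm subunits 4 higher and 1 lower, NDUFAB1 1 lower and the 3 assembly factors 1 lower. The difference between roles was not tested. Under median centring the brighter NDUFB2 probe set turned negative in 3 of its 4 calls and the middle and brightest NDUFB8 probe sets at 2.5 cGy in GM15510, whereas all 8 distal calls kept a positive value when arrays were centred after scaling. With brightness as a covariate 5 of the 22 calls passed, all in GM15510. They were those of NDUFA13 at 2.5 and 10 cGy, NDUFS1 and the dimmer NDUFB2 probe set at 10 cGy and the brightest NDUFB8 probe set at 5 cGy. Brightness differed between dose groups, so this fit cannot fully tell brightness from dose. Among the calls that ended, some estimates kept their size, others shrank, and those of NDUFC1 and NDUFS6 in GM15036 grew.

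Among the core subunits, NDUFS1 had the most calls. NDUFS1 carries several of the iron-sulfur clusters along the electron path. In GM15036 its scaled signal was 172, 175 and 201 in the arrays at 1 cGy, 163, 180 and 182 at 2.5 cGy, 217, 217 and 221 at 5 cGy, 154, 172 and 177 at 7.5 cGy, and 123, 134 and 147 at 10 cGy. The 10 cGy arrays were the lowest of the line without overlap, and the 5 cGy arrays the highest. NDUFS1 fell by 0.43 (SE 0.107, n = 3 per dose, adjusted p = 0.00607) at 10 cGy against 1 cGy. In GM15510 the arrays gave 297, 311 and 361 at 1 cGy, 191, 210 and 268 at 2.5 cGy, 265, 266 and 274 at 5 cGy, 282, 312 and 316 at 7.5 cGy, and 225, 229 and 238 at 10 cGy. All arrays at 2.5, 5 and 10 cGy were below those at 1 cGy, and the 7.5 cGy arrays overlapped them. The differences past the threshold were −0.54 at 2.5 cGy (SE 0.107, adjusted p = 0.00113) and −0.47 at 10 cGy (adjusted p = 0.00465).

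Brightness moved with NDUFS1 in part of these groups. The group at 10 cGy in GM15036 averaged 22.1 against 69.6 at 1 cGy, and that at 2.5 cGy in GM15510 18.7 against 69.4, but at 10 cGy in GM15510 it was 89.1. The ACTB 3′ to 5′ ratio was above that at 1 cGy in the 10 cGy arrays of both lines. With brightness as a covariate the values were −0.43 (adjusted p = 0.157) for the former and −0.53 (0.136) for the 2.5 cGy dose of GM15510. Without the 5 dimmest arrays the latter was −0.26 (0.281), with 1 array left at 2.5 cGy that is taken to vary like the others. The call at 10 cGy in GM15510 ended without 1 cGy replicate 2 (−0.39, adjusted p = 0.0575) and under median centring (−0.43, adjusted p = 0.294).

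NDUFS3, a core subunit near the ubiquinone site, fell in GM15036. Its arrays gave 70.8, 81.1 and 90.6 at 1 cGy and 37.3, 55.9 and 61.4 at 10 cGy, with 62.8, 76.6 and 79 at 2.5 cGy, 38.2, 57.8 and 78.2 at 5 cGy and 45.9, 69.5 and 71.1 at 7.5 cGy. The 10 cGy arrays were all below those at 1 cGy, and the groups between overlapped with one or both. The change at 10 cGy was −0.63 (SE 0.199, adjusted p = 0.0338). It was −0.37 (adjusted p = 0.503) without the 5 dimmest arrays and −0.45 (0.52) with brightness as a covariate, and the call also ended without 1 cGy replicates a (0.0788) and c (0.136) and 10 cGy replicate b (0.227). In GM15510 the arrays gave 65.2, 69.4 and 93.3 at 1 cGy, 78.2, 86 and 100 at 2.5 cGy, 61.3, 62.6 and 77.3 at 5 cGy, 61.5, 63 and 70.1 at 7.5 cGy, and 76.4, 82.2 and 85.7 at 10 cGy. Every dose overlapped with 1 cGy, and none passed.

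NDUFV2, a subunit of the NADH-oxidising tip with an iron-sulfur cluster of its own, was higher at 7.5 cGy in GM15036. The arrays gave 248, 294 and 317 at 1 cGy, 249, 272 and 286 at 2.5 cGy, 262, 338 and 344 at 5 cGy, 329, 377 and 466 at 7.5 cGy, and 245, 256 and 294 at 10 cGy. The 7.5 cGy arrays were the group that stood wholly above 1 cGy, and at 5 cGy 2 of the 3 arrays did. The difference was 0.44 (SE 0.126, adjusted p = 0.0482), and the call ended without each of 19 of the 30 arrays, with adjusted p up to 0.309, so it sat at the threshold. NDUFV1, which binds NADH and the flavin, ranged from −0.53 at 5 cGy in GM15510 to 0.43 at 7.5 cGy in GM15036, and its smallest adjusted p was 0.113. NDUFS7, which holds the last cluster before ubiquinone, ranged from −0.10 to 0.79 with a smallest adjusted p of 0.166 and arrays of 11.3 to 31.1.

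In the matrix arm, NDUFA9 and NDUFS6 passed in GM15036 at 10 cGy, in opposite directions. NDUFA9, an accessory subunit at the joint of the arms, gave 315, 328 and 367 at 1 cGy in GM15036, 292, 294 and 308 at 2.5 cGy, 288, 324 and 348 at 5 cGy, 263, 270 and 304 at 7.5 cGy, and 220, 222 and 236 at 10 cGy. At 10 cGy all arrays were below the others of the line. The fall was −0.56 (SE 0.108, adjusted p = 0.000507), and it passed without each of the 30 arrays. In GM15510 the arrays gave 340, 366 and 370 at 1 cGy, 272, 306 and 397 at 2.5 cGy, 269, 337 and 346 at 5 cGy, 363, 368 and 377 at 7.5 cGy, and 377, 382 and 388 at 10 cGy. Here the 10 cGy arrays stood above those at 1 cGy, with a difference of 0.09 (adjusted p = 0.799) that did not pass. With brightness as a covariate NDUFA9 had −0.41 (adjusted p = 0.162) at 10 cGy in GM15036.

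NDUFS6, a zinc-binding subunit needed late in assembly, was higher at 10 cGy in GM15036. Its arrays gave 577, 711 and 767 at 1 cGy, 648, 684 and 888 at 2.5 cGy, 657, 683 and 805 at 5 cGy, 812, 895 and 1270 at 7.5 cGy, and 839, 974 and 1160 at 10 cGy. The arrays at 7.5 and 10 cGy were above all at 1 cGy. The difference was 0.53 (SE 0.163, adjusted p = 0.03) at 10 cGy, but it turned to −0.13 (adjusted p = 0.712) under median centring and was 0.59 (0.21) with brightness as a covariate. It lost its call without 1 cGy replicate a (0.0507) or c (0.173) and without 10 cGy replicate b (0.0693) or c (0.15). In GM15510 the arrays gave 623, 774 and 856 at 1 cGy, 448, 540 and 648 at 2.5 cGy, 535, 673 and 849 at 5 cGy, 491, 555 and 564 at 7.5 cGy, and 800, 806 and 891 at 10 cGy. The 7.5 cGy arrays were below those at 1 cGy, and no dose passed.

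The other 6 tested matrix arm probe sets, of NDUFA2, NDUFA5, NDUFA6, NDUFA7 and NDUFS4, did not pass in any comparison with 1 cGy. The nearest was an NDUFA6 probe set (the dimmer of its pair) at 2.5 cGy in GM15510 (0.54, adjusted p = 0.0613). NDUFA6 is a small subunit of the LYR family that docks the acyl carrier protein. The brighter NDUFA6 probe set had −0.34 in that comparison, so the pair disagreed in sign. NDUFA7 had the widest range, −0.83 to 0.42, on arrays of 1.28 to 34.9 that were dim and scattered.

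NDUFAB1 is the mitochondrial acyl carrier protein, present in both arms of complex I and also needed for lipoic acid and iron-sulfur cluster synthesis. In GM15510 it gave 224, 241 and 258 at 1 cGy, 209, 224 and 231 at 2.5 cGy, 163, 171 and 185 at 5 cGy, 138, 184 and 270 at 7.5 cGy, and 215, 231 and 234 at 10 cGy. The 5 cGy arrays were the group that lay wholly below 1 cGy. The difference was −0.47 (SE 0.138, adjusted p = 0.0454), and the call ended without each of 16 of the 30 arrays (adjusted p up to 0.185). In GM15036 all NDUFAB1 arrays lay between 219 and 295.

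NDUFA13 had the largest change of the complex I genes against 1 cGy under the scaling used, at 2.5 cGy in GM15510. Its smaller change at 10 cGy was the one call of the 22 that passed under all 11 alternatives and without each array. It encodes a subunit at the foot of the membrane arm that is also known as GRIM-19, a protein described in cell death induced by interferon and retinoic acid. In GM15510 the arrays gave 63.4, 74.5 and 79.6 at 1 cGy, 118, 144 and 194 at 2.5 cGy, 98.1, 100 and 100 at 5 cGy, 84.2, 94.6 and 111 at 7.5 cGy, and 122, 130 and 131 at 10 cGy. Every array of the 4 higher doses was above every 1 cGy array. NDUFA13 rose by 1.01 (SE 0.145, adjusted p = 2.35e-05) at 2.5 cGy, a 2.01-fold difference, and by 0.79 (adjusted p = 0.000547) at 10 cGy, and had 0.44 (adjusted p = 0.0832) at 5 cGy and 0.39 (0.207) at 7.5 cGy. The call at 2.5 cGy also held without each of the 30 arrays, but there median centring gave 0.31 (adjusted p = 0.212). Brightness was 18.7 at 2.5 cGy and 89.1 at 10 cGy, below and above the 69.4 at 1 cGy, and the ACTB 3′ to 5′ ratio overlapped with 1 cGy at 2.5 cGy and was above it at 10 cGy (5.06 to 5.25 against 3.18 to 4.04). In GM15036 the 1 cGy arrays were at the upper end instead. The line gave 130, 149 and 163 at 1 cGy, 81.4, 107 and 115 at 2.5 cGy, 98.5, 109 and 114 at 5 cGy, 115, 130 and 131 at 7.5 cGy, and 103, 112 and 120 at 10 cGy. The arrays at 2.5, 5 and 10 cGy were all below those at 1 cGy, with differences of −0.54 (adjusted p = 0.0831), −0.44 (0.304) and −0.39 (0.0823) that did not pass. The 2 lines differed most at 1 cGy, by −0.98 for GM15510 against GM15036, and by −0.37 to 0.56 at the other doses.

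NDUFC1, a small subunit of the proximal membrane arm, was higher at the upper doses of GM15036. It gave 44.1, 51.3 and 65.6 at 1 cGy, 62.3, 63.6 and 63.7 at 2.5 cGy, 42.8, 55.6 and 63.2 at 5 cGy, 72.9, 80.2 and 99.2 at 7.5 cGy, and 69.2, 86.3 and 89.7 at 10 cGy. All 6 arrays at 7.5 and 10 cGy were above the other 9. The differences were 0.62 (SE 0.17, adjusted p = 0.0373) and 0.58 (adjusted p = 0.0211). Median centring gave 0.37 (0.329) and 0.05 (0.899), and each call depended on single arrays. The one at 7.5 cGy ended without 1 cGy replicates a (0.0907) and b (0.222) and 7.5 cGy replicates b (0.0857) and c (0.211), and the one at 10 cGy without 1 cGy replicates a (0.0629) and b (0.143) and 10 cGy replicates b (0.0925) and c (0.0687). In GM15510 NDUFC1 gave 66.7, 77.3 and 85.4 at 1 cGy, 60.7, 62.1 and 67.6 at 2.5 cGy, 47.6, 64.5 and 68.3 at 5 cGy, 62.1, 62.1 and 85.6 at 7.5 cGy, and 67, 70.7 and 72.5 at 10 cGy. All groups overlapped with 1 cGy, with negative differences of −0.34 to −0.11 that did not pass.

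NDUFA8, a subunit on the face toward the intermembrane space, fell at 10 cGy in GM15036. It gave 98.6, 117 and 127 at 1 cGy, 85.3, 95.3 and 100 at 2.5 cGy, 89.4, 113 and 123 at 5 cGy, 104, 112 and 122 at 7.5 cGy, and 75.3, 79.4 and 92.1 at 10 cGy. Arrays at 10 cGy were below those at 1 cGy but overlapped with those at 2.5 and 5 cGy. The difference of −0.45 (SE 0.145, adjusted p = 0.0373) was −0.29 (0.473) without the 5 dimmest arrays, and the call ended without 1 cGy replicates a (0.157) and c (0.105) and 10 cGy replicates a (0.1) and b (0.138). GM15510 arrays gave 141, 155 and 163 at 1 cGy, 107, 134 and 139 at 2.5 cGy, 121, 133 and 173 at 5 cGy, 101, 120 and 123 at 7.5 cGy, and 148, 156 and 201 at 10 cGy. Those at 2.5 and 7.5 cGy lay below 1 cGy, and no dose passed. NDUFA1, NDUFA3 and NDUFA10, the 3 other proximal subunits, ranged from −0.66 to 0.31, and NDUFA3 at 2.5 cGy in GM15510 came nearest (−0.66, adjusted p = 0.0556).

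NDUFB2 was one of 2 probe sets past the threshold in both lines, the other being NDUFS1. It is a small distal subunit that crosses the membrane. Its brighter probe set gave 487, 511 and 527 at 1 cGy in GM15036, 459, 491 and 495 at 2.5 cGy, 487, 492 and 526 at 5 cGy, 605, 708 and 717 at 7.5 cGy, and 583, 631 and 650 at 10 cGy. The arrays split without overlap into 9 at the lower doses and 6 at 7.5 and 10 cGy. The differences were 0.41 (SE 0.081, adjusted p = 0.0029) at 7.5 cGy and 0.29 (adjusted p = 0.0163) at 10 cGy. In GM15510 it gave 377, 379 and 417 at 1 cGy, 496, 506 and 533 at 2.5 cGy, 467, 467 and 494 at 5 cGy, 436, 443 and 455 at 7.5 cGy, and 428, 473 and 480 at 10 cGy. Every array above 1 cGy was higher than every 1 cGy array, and the differences past the threshold were 0.39 at 2.5 cGy (adjusted p = 0.00192) and 0.28 at 5 cGy (0.0384). The ACTB 3′ to 5′ ratio was above that at 1 cGy at both of these doses of GM15036 and overlapped with it at both of GM15510.

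The direction of the brighter NDUFB2 probe set depended on the scaling in 3 of its 4 calls. Under median centring it had 0.10 (adjusted p = 0.778) at 7.5 cGy in GM15036 and turned to −0.36 (adjusted p = 0.0737) at 10 cGy in GM15036 and to −0.37 (0.0515) and −0.13 (0.622) at 2.5 and 5 cGy in GM15510. The call at 10 cGy ended without 1 cGy replicate c (0.0759) and 10 cGy replicate b (0.0756) of GM15036. That at 5 cGy in GM15510 ended without 1 cGy replicates 1 (0.162) and 3 (0.153) and 5 cGy replicates 1 (0.145), 2b (0.076) and 3 (0.0553). The dimmer NDUFB2 probe set gave 38.9, 76.2 and 78.5 at 1 cGy in GM15510, 82.5, 93 and 93.2 at 2.5 cGy, 60.9, 63 and 78.1 at 5 cGy, 50.8, 62.8 and 70.4 at 7.5 cGy, and 104, 108 and 113 at 10 cGy. The 10 cGy arrays were above all others. It rose by 0.77 (SE 0.169, adjusted p = 0.00335) there, under all 11 alternatives, but had 0.46 (0.0696) without 1 cGy replicate 3, the array at 38.9. In GM15036 the same probe set gave 84, 84.6 and 85.7 at 1 cGy, 63.9, 68.2 and 84.3 at 2.5 cGy, 83.9, 89.7 and 89.9 at 5 cGy, 113, 126 and 131 at 7.5 cGy, and 94.8, 96.2 and 104 at 10 cGy, and at 7.5 cGy it had 0.52 (0.0862). Both probe sets were thus highest at 7.5 cGy in GM15036, while in GM15510 the brighter was highest at 2.5 cGy and the dimmer at 10 cGy.

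NDUFB8, a distal membrane arm subunit whose protein is often used as a marker of assembled complex I, was higher at 2.5 and 5 cGy in GM15510. The brightest of its 3 probe sets gave 616, 643 and 655 at 1 cGy, 765, 784 and 810 at 2.5 cGy, 831, 860 and 872 at 5 cGy, 600, 665 and 696 at 7.5 cGy, and 625, 655 and 681 at 10 cGy. The 6 arrays at 2.5 and 5 cGy stood above the other 9. The differences were 0.30 (SE 0.0797, adjusted p = 0.0136) at 2.5 cGy and 0.42 (adjusted p = 0.00128) at 5 cGy. Under median centring the value at 2.5 cGy turned to −0.47 (adjusted p = 0.0191), which passed in the other direction, and at 5 cGy it was 0.00 (0.993). Without 1 cGy replicate 1 the call at 2.5 cGy ended (0.0703). In GM15036 the arrays gave 573, 625 and 658 at 1 cGy, 635, 639 and 661 at 2.5 cGy, 605, 626 and 658 at 5 cGy, 652, 729 and 757 at 7.5 cGy, and 680, 700 and 765 at 10 cGy, and no dose passed.

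The other NDUFB8 probe sets did not follow it at each dose. The middle one gave 101, 103 and 129 at 1 cGy in GM15510, 171, 177 and 178 at 2.5 cGy, 101, 129 and 130 at 5 cGy, 110, 124 and 154 at 7.5 cGy, and 122, 143 and 147 at 10 cGy. It stood apart at 2.5 cGy alone, by 0.65 (SE 0.14, adjusted p = 0.00259), and turned to −0.07 (0.82) under median centring. In GM15036 it gave 116, 122 and 132 at 1 cGy, 124, 129 and 129 at 2.5 cGy, 120, 127 and 133 at 5 cGy, 102, 109 and 127 at 7.5 cGy, and 93.6, 109 and 146 at 10 cGy, all overlapping with 1 cGy, and no dose passed. The dimmest gave 17.8, 18.2 and 20.6 at 1 cGy in GM15510, 15.5, 24.4 and 30.4 at 2.5 cGy, 31.5, 33.5 and 37.8 at 5 cGy, 22.2, 30.9 and 31.1 at 7.5 cGy, and 16.6, 21.8 and 26.1 at 10 cGy. In GM15036 it gave 29.2, 30.8 and 59 at 1 cGy, 30, 30.9 and 32.1 at 2.5 cGy, 18.4, 32.4 and 37.9 at 5 cGy, 34.1, 35.8 and 37.3 at 7.5 cGy, and 41.8, 42.3 and 45.8 at 10 cGy. It passed at no dose and had its highest value at 5 cGy in GM15510 (0.74, adjusted p = 0.095), where its arrays were above those at 1 cGy, as they were at 7.5 cGy. In GM15036 every dose overlapped with 1 cGy. The 7 other tested distal probe sets, of NDUFB1, NDUFB3, NDUFB4, NDUFB5, NDUFB6, NDUFB7 and NDUFB11, passed at no dose. NDUFB7 had the largest of their values, 0.99 (adjusted p = 0.138) at 10 cGy in GM15036, on arrays of 1.19 to 35.9.

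NDUFAF1 was the assembly factor past the threshold. It belongs to the complex that assembles the membrane arm around ND2. In GM15036 it gave 161, 170 and 205 at 1 cGy, 149, 175 and 211 at 2.5 cGy, 148, 163 and 169 at 5 cGy, 134, 144 and 155 at 7.5 cGy, and 73.9, 108 and 143 at 10 cGy. At 10 cGy the arrays were below those at 1 cGy and wider apart than in any other group of this probe set. The difference was −0.74 (SE 0.158, adjusted p = 0.00143), and it passed without each of the 30 arrays. It was −0.31 (adjusted p = 0.397) without the 5 dimmest arrays, with 1 array left at 10 cGy, and −0.30 (0.542) with brightness as a covariate. In GM15510 the arrays gave 164, 216 and 229 at 1 cGy, 150, 163 and 167 at 2.5 cGy, 170, 179 and 195 at 5 cGy, 172, 208 and 232 at 7.5 cGy, and 276, 280 and 302 at 10 cGy. The 10 cGy arrays were the highest of the line, but the difference from 1 cGy of 0.50 (adjusted p = 0.0537) did not pass.

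NDUFAF3 and NDUFAF4, which act together on the ubiquinone-binding part, ranged from −0.67 to 0.29 and from −0.33 to 0.29 and did not pass. The 5 members left out of the tests as dim were NDUFAF5, which modifies NDUFS7, the assembly factor NDUFAF7, and further probe sets of NDUFA2, NDUFA5 and NDUFB7. Their arrays had medians of 3.42 to 7.43 and a highest value of 26.

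**Figure D3:**
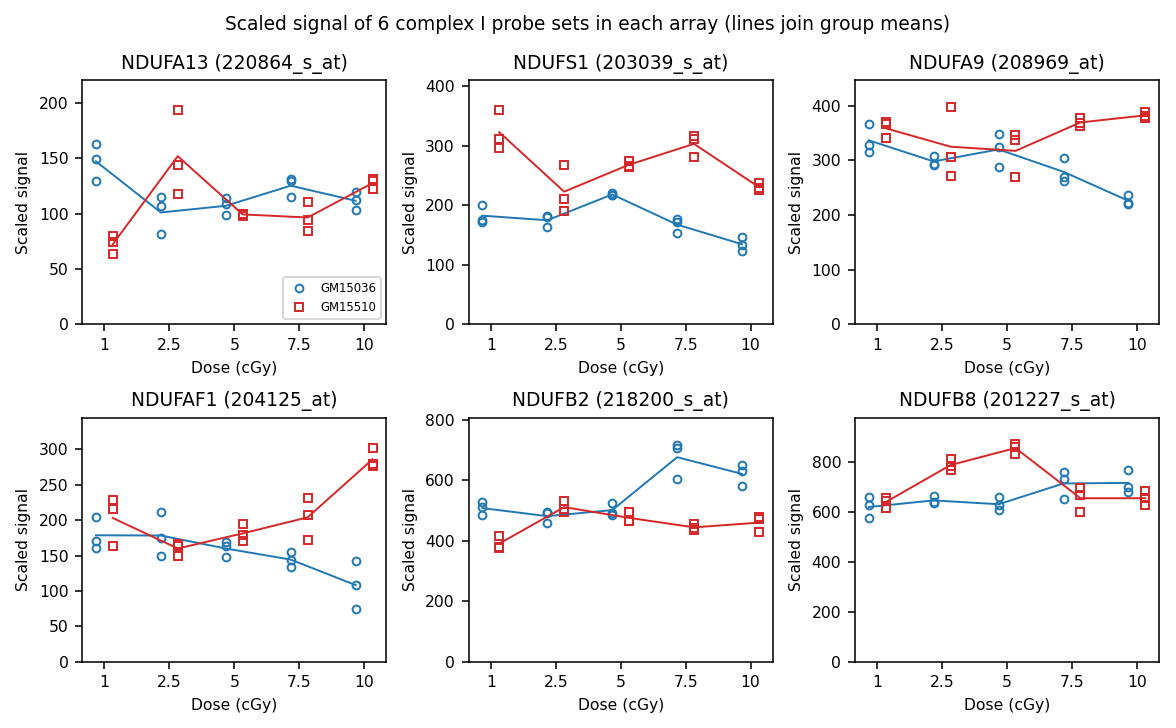
Scaled signal (vertical axis, array units, from 0) against dose in cGy (horizontal axis, equally spaced) for 6 complex I probe sets, with 1 symbol per array (circles GM15036, squares GM15510) and lines joining the means of 3 arrays. NDUFA13 goes up from 1 cGy in GM15510 and has its highest mean at 1 cGy in GM15036, where no dose passed, NDUFS1 is higher in GM15510 at every dose, and NDUFA9 and NDUFAF1 part at 10 cGy.

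Asked whether any of the 5 doses differed, an F test passed for 12 of the 35 members in GM15036 (16.2% of all tested probe sets passed) and for 13 in GM15510 (21% of all). The smallest adjusted p in GM15036 was that of the brighter NDUFB2 probe set (5.46e-05), followed by NDUFS1 (0.00036), and in GM15510 that of NDUFA13 (4.36e-05), followed by the brightest NDUFB8 probe set (0.000211). With brightness as a covariate the counts were 5 and 6. Members that passed this test in a line and no comparison with 1 cGy in either line were NDUFA1, NDUFA2 and NDUFB5 in GM15036 and NDUFV1, the dimmer NDUFA6 probe set and NDUFB6 in GM15510.

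The lines differed in complex I mRNA about as often as in mRNA at large. Averaged over doses, 10 members were higher and 7 lower in GM15510 than in GM15036, 48.6% of the 35 where 47.2% of all tested probe sets passed (20.5% higher, 26.7% lower), with a median difference of 0.04 beside −0.067 for all. The split was 17 to 2 under median centring and 16 to 5 when arrays were centred after scaling. NDUFS1 differed most by its test. Its GM15036 arrays ran from 123 over a median of 175 to 221 and its GM15510 arrays from 191 over 268 to 361, and the groups did not overlap at any of the 5 doses. The difference was 0.61 (SE 0.0478, 15 arrays per line, adjusted p = 1.49e-12), or 1.52-fold.

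Both NDUFA6 probe sets had higher means in GM15510 at all 5 doses. At 1, 2.5, 5, 7.5 and 10 cGy in turn, the dimmer gave 44.8, 61.6 and 70, then 43.2, 58.3 and 62.7, then 41.1, 52.1 and 54.4, then 38.8, 48.3 and 67.7, and then 36.5, 46.8 and 48.9 in GM15036. In GM15510 it gave 64.5, 71.3 and 75.3, then 98, 100 and 114, then 73.2, 79.1 and 97.2, then 50.2, 65 and 70.4, and then 73.2, 74.6 and 83. The lines overlapped at 1 and 7.5 cGy and not at the other doses. In the same order the brighter gave 238, 256 and 410, then 418, 432 and 437, then 361, 389 and 398, then 309, 346 and 581, and then 295, 343 and 392 in GM15036. In GM15510 it gave 498, 671 and 715, then 389, 444 and 673, then 377, 605 and 673, then 447, 508 and 667, and then 406, 555 and 610. The lines did not overlap at 1 and 10 cGy. For the dimmer the arrays ran from 36.5 over 48.9 to 70 in GM15036 and from 50.2 over 74.6 to 114 in GM15510 (difference 0.58, SE 0.0833, adjusted p = 5.43e-07), and for the brighter from 238 over 389 to 581 and from 377 over 555 to 715 (0.55, adjusted p = 1.92e-05). NDUFA8 was also higher at all doses, with arrays of 75.3 over 100 to 127 and 101 over 139 to 201 (0.44, SE 0.065, adjusted p = 7.27e-07), and by 0.02 to 0.99 at single doses. NDUFAF1 averaged 0.42 higher (SE 0.0705, adjusted p = 7.07e-06), from −0.14 at 2.5 cGy to 1.42 at 10 cGy. Averaged over doses NDUFB2 was lower in GM15510, by −0.28 (SE 0.0362, adjusted p = 8.09e-08) for the brighter probe set and by −0.27 (adjusted p = 0.00367) for the dimmer. Arrays of the brighter ran from 459 over 526 to 717 and from 377 over 467 to 533. At single doses the brighter went from −0.60 at 7.5 cGy to 0.09 at 2.5 cGy. The dimmer went from −0.97 at 7.5 cGy to 0.30 at 2.5 cGy and was also positive at 10 cGy (0.13). NDUFV1 had −0.45 (adjusted p = 2.89e-05) and NDUFA5, of the matrix arm, −0.34 (0.000434), both with a negative difference at all 5 doses. Under median centring the NDUFB2 differences were −0.14 (0.117) and −0.13 (0.269) and that of NDUFA5 −0.20 (0.126), and the dimmer NDUFB2 probe set had −0.15 (0.116) when arrays were centred after scaling, so these calls ended there. The 3 NDUFB8 probe sets disagreed, at 0.13 (0.0902), 0.10 (0.0167) and −0.45 (0.00121) for the middle, the brightest and the dimmest.

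**Figure D4:**
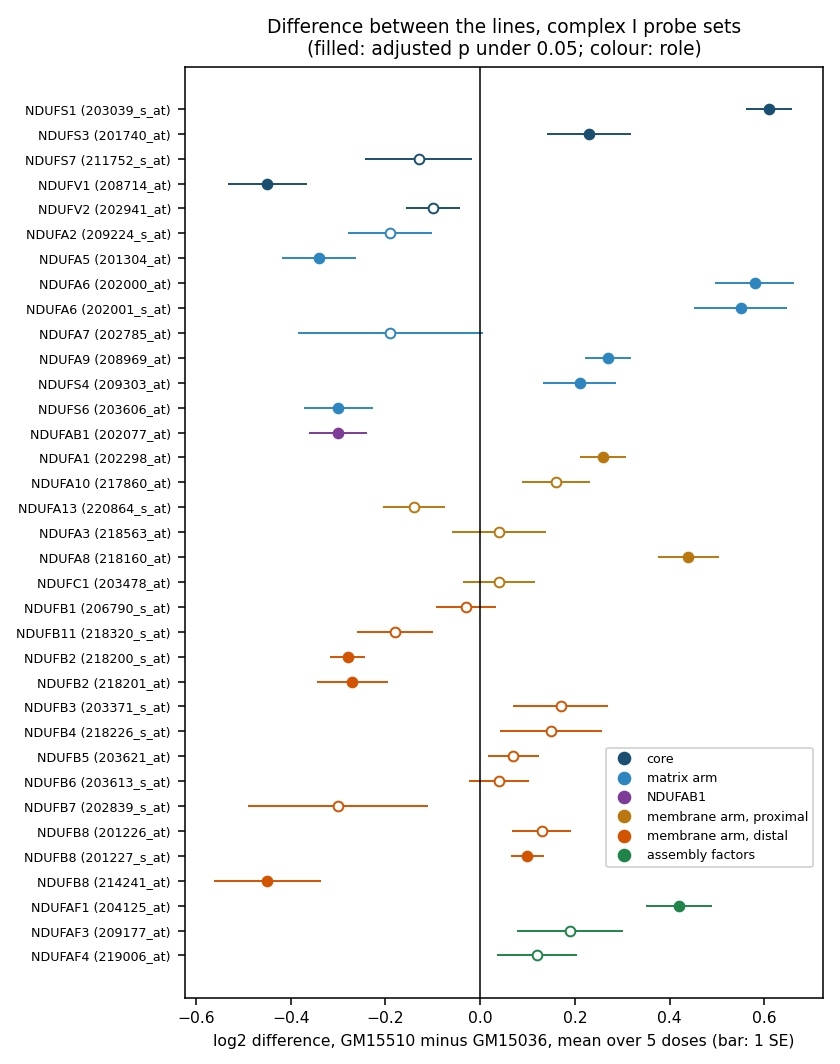
Difference of log2(scaled signal + 4) between the lines, GM15510 minus GM15036, averaged over 5 doses (horizontal axis), for the 35 tested complex I probe sets (vertical axis, coloured by role), with bars of 1 SE. Filled points have an adjusted p under 0.05 (10 to the right and 7 to the left), NDUFS1 at 0.61 lies farthest right and NDUFV1 and the dimmest NDUFB8 probe set, both at −0.45, farthest left.

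The change with dose itself differed between the lines for a few members, tested as a difference of differences. At 2.5 cGy 3 members changed more upward in GM15510 and 0 more downward, 8.57% of members beside 2.81% of all (1.52% and 1.3%). At 5 cGy 1 and 0 passed, 2.86% of members beside 0.945% of all (0.51% and 0.435%). At 7.5 cGy it was 0 and 1, 2.86% beside 3.09% (1.91% and 1.19%). At 10 cGy it was 3 and 0, 8.57% beside 8.19% (5.03% and 3.16%). The shares at 7.5 and 10 cGy were thus near those of all probe sets, and these counts do not set complex I apart. NDUFA13 passed at 2.5, 5 and 10 cGy, with 1.54 (SE 0.205, adjusted p = 3.11e-05), 0.88 (0.0279) and 1.17 (0.000287) more change in GM15510, and these 3 share the 1 cGy arrays. At 2.5 and 10 cGy it passed under all 11 alternatives and without each array. NDUFAF1 and NDUFA9 passed at 10 cGy, with 1.25 (SE 0.223, adjusted p = 0.000378) and 0.66 (SE 0.153, adjusted p = 0.00499), both without each of the 30 arrays, but had 0.72 (0.156) and 0.48 (0.23) with brightness as a covariate. Brightness was 22.1 at 10 cGy in GM15036 and 89.1 in GM15510. Under median centring 11 members passed at 10 cGy, all higher, and at 2.5 cGy 1 was higher and 4 lower.

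Genes that work with complex I but carry other names were set beside it. Of 13 probe sets of 11 other assembly factors, 0 passed limma's test in GM15036 at any dose, 1 was higher at 2.5 cGy (7.69%, beside 9.49% of all probe sets) and 1 lower at 5 cGy in GM15510 (7.69%, beside 4.19%), and 2 were higher and 2 lower at 10 cGy (30.8%, beside 5.91%). AIFM1, a flavoprotein that imports subunits with CHCHD4, was lower by −0.57 (SE 0.131, adjusted p = 0.00852) at 5 cGy and higher by 0.44 (adjusted p = 0.0414) at 10 cGy. TMEM186 had 0.68 (0.0285) and TMEM126B, a partner of NDUFAF1, −0.42 (0.0416) at 10 cGy. Of 21 probe sets of 12 regulators of mitochondrial gene expression, 1 was higher and 4 lower at 2.5 cGy in GM15510 (23.8%, beside 9.49% of all) and 0 higher and 3 lower at 10 cGy (14.3%, beside 5.91%), and 1 was higher and 2 lower at 10 cGy in GM15036 (14.3%, beside 11.7%). TFAM, which packages and transcribes mitochondrial DNA, had −0.72 (adjusted p = 0.00207) at 2.5 cGy and −0.71 (0.00263) at 10 cGy in GM15510 by one probe set, while another had 0.79 (0.0224) at 10 cGy in GM15036. YY1, a transcription factor, had −0.70 (0.00566) and −0.66 (0.0105) at the same doses of GM15510. TFB2M, of the mitochondrial transcription machinery, was lower at 10 cGy in both lines, by −0.40 (0.0077) in GM15036 and −0.36 (0.0302) in GM15510.

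Subunits of complexes II to V, 61 probe sets of 38 genes, passed in 0% at the lower 2 doses of GM15036, 8.2% at its 7.5 cGy dose and 18% at its 10 cGy dose, and in 18%, 8.2%, 0% and 18% at the 4 doses of GM15510. Of all tested probe sets 0.548%, 0.143%, 3.22% and 11.7% passed at the 4 doses of GM15036. In GM15510 it was 9.49%, 4.19%, 1.79% and 5.91% of all. At 10 cGy in GM15036 4 were higher and 7 lower, led by ATP5F1B, the catalytic subunit of ATP synthase, at −0.84 (SE 0.088, adjusted p = 9.18e-08). UQCRC2 and CYC1, of complex III, had −0.72 (0.00018) and −0.71 (0.000295). Under the scaling used, some subunits were lower and others higher in that comparison, in both complex I and complexes II to V. For complex I, median centring and centring after scaling left only lower members past the threshold there. Cytosolic ribosomal protein probe sets, 88 in all, had 26 higher and 1 lower in it under the scaling used (30.7%). Of all tested probe sets 4.39% were higher and 7.35% lower.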

How the data were processed

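Affymetrix arrays, 30 in all and 3 per line and dose, measured RNA of 2 lymphoblastoid lines. The authors deposited linear intensity values, made by MAS5 according to the submitters' processing notes, whose version is not stated. The deposited intensities were not at a common level, with trimmed means over the 2 to 98 percent range that differed by 7.91 times. Each array was therefore scaled to the mean of these, 50.9, and log2 was taken after adding 4. Probe sets among the lowest 40% by mean and control probe sets were left out, which left 13331. Of all probe sets, 19071 had 1 symbol, 1043 several and 2169 none, and members came from those with 1. Symbols were checked through gene IDs against RefSeq for GRCh38, which matched 19059. Subunits whose probe sets carry several symbols were not analysed here.

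Tests used limma 3.58.1 in R 4.3.3, two-sided, with lmFit on the 10 groups, eBayes with an intensity trend (20 residual and 12.3 prior degrees of freedom) and Benjamini-Hochberg adjustment over all tested probe sets, at a threshold of 0.05. Every adjusted p is from these fits, and the script was tested on simulated data. Named with every array were the 12 probe sets with the smallest adjusted p among the 14 that passed against 1 cGy, other probe sets of their genes, and the 6 smallest for the line difference. NDUFV2, NDUFAB1 and other members given by ranges or as examples stand outside that rule and were chosen after their values were seen. The members and lists were chosen with earlier results of these data known. Alternatives were 11 settings and leaving out each array. Arrays with the same replicate label showed no broad common deviation, as described in the closing section, and the main fit did not pair them. The number of arrays limits the precision.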

Additional observations from a re-analysis of the deposited data

Results flagged for a closer look

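The change from 1 cGy differed between the lines by limma's test of the difference itself for 8 pairs of a complex I probe set and a dose. At 7.5 and 10 cGy the share of members that passed, 2.86% and 8.57%, was near that of all tested probe sets, 3.09% and 8.19%. Values are log2 changes in GM15510 minus those in GM15036. NDUFA13 had 1.54 at 2.5 cGy, 0.88 at 5 cGy and 1.17 at 10 cGy. Its value at 5 cGy lost its call without each of 9 of the 30 arrays, with adjusted p up to 0.0931. NDUFA2 had 1.14 at 2.5 cGy (adjusted p = 0.0194), from −0.62 in GM15036 and 0.52 in GM15510, neither of which passed alone. NDUFA2 encodes a matrix arm subunit, and its arrays gave 55.3, 58.2 and 69.1 at 1 cGy and 28.1, 40.4 and 48.1 at 2.5 cGy in GM15036, and 41.1, 41.1 and 47.7 against 52.8, 53.5 and 90.3 in GM15510. Neither pair of groups overlapped. Without the 5 dimmest arrays it had 0.89 (0.123), and the call ended without GM15036 1 cGy replicate c (0.0603), GM15036 2.5 cGy replicate a (0.0786) and GM15510 2.5 cGy replicate 2 (0.0695). The brighter NDUFB2 probe set had 0.46 at 2.5 cGy (0.019), and the call ended without GM15036 1 cGy replicate a (0.0533), GM15036 2.5 cGy replicate c (0.0634), GM15510 1 cGy replicate 1 (0.0613) and GM15510 1 cGy replicate 3 (0.0519). NDUFS6 had −0.99 at 7.5 cGy (0.0107), and −0.80 (0.0568) without GM15036 7.5 cGy replicate c, its highest array. NDUFAF1 had 1.25 and NDUFA9 0.66 at 10 cGy.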

How the results depend on the processing

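The 8 comparisons with 1 cGy gave 0, 0, 3 and 8 members past the threshold at 2.5, 5, 7.5 and 10 cGy in GM15036 and 5, 3, 0 and 3 in GM15510. Median centring changed these to 0 and 15 at 7.5 and 10 cGy in GM15036 and to 21 and 6 at 2.5 and 5 cGy in GM15510. Centring after scaling gave 0 at 7.5 cGy in GM15036 and, in GM15510, 9 at 2.5 cGy, where quantile normalization gave 9 and a filter of 60% gave 8. Quantile normalization gave 1 at 7.5 cGy in GM15510. No filter gave 1 at 7.5 cGy in GM15036 and, in GM15510, 1 at 5 cGy. eBayes without a trend gave 1 and 5 at 7.5 and 10 cGy in GM15036 and, in GM15510, 1 at 5 cGy. Brightness as a covariate gave 0 at 7.5 and 10 cGy in GM15036 and, in GM15510, 1 at 2.5 and at 5 cGy. Leaving out the 5 dimmest arrays, chosen after seeing the data, gave 1 at 2.5 cGy and 3 at 10 cGy in GM15036 and, in GM15510, 1 at 5 cGy. All of these counts are of members only. The shares of all probe sets under each setting are not given, so the counts do not set complex I apart. The cause was not tested.

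Without each array in turn the counts ran from 0 to 1, 0 to 0, 1 to 3 and 3 to 9 in GM15036, and from 5 to 7, 1 to 4, 0 to 1 and 2 to 5 in GM15510. Those of 1 were found without GM15510 2.5 cGy replicate 2 (2.5 cGy in GM15036) and without GM15510 7.5 cGy replicates 1 and 2 (7.5 cGy in GM15510). The 17 members that differed between the lines were 16 to 20 without each array. Line differences of the change numbered 3, 1, 1 and 3 at the 4 doses. They were 5, 0, 0 and 11 under median centring. Centring after scaling gave 1 at 2.5 cGy and 6 at 10 cGy, brightness as a covariate 1 at both, and eBayes without a trend 0 at 5 and 7.5 cGy. Without each array they ran from 2 to 5, 0 to 1, 0 to 2 and 3 to 4. The count at 2.5 cGy was 5 without GM15510 2.5 cGy replicate 1. The count at 5 cGy was 0 without each of GM15036 1 cGy replicates a and b, GM15036 5 cGy replicates a, b and c, GM15510 1 cGy replicates 1 and 2 and GM15510 5 cGy replicate 1. That at 7.5 cGy was 0 without GM15036 7.5 cGy replicate c, and 2 without GM15036 1 cGy replicate c, GM15510 1 cGy replicate 3 and GM15510 7.5 cGy replicates 2 and 3. The F test passed for 12 members in GM15036, 5 with brightness as a covariate and 8 to 14 without each array. In GM15510 it passed for 13, 20 under median centring, 8 without a trend, 6 with brightness, 7 without the dimmest arrays and 9 to 13 without each array.

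Values that turned were all under median centring. The brighter NDUFB2 probe set had −0.36 at 10 cGy in GM15036, −0.37 and −0.13 at 2.5 and 5 cGy in GM15510, and −0.11 for the line difference of the 2.5 cGy change. NDUFS6 had −0.13 at 10 cGy in GM15036, and the middle NDUFB8 probe set −0.07 and the brightest −0.47 at 2.5 cGy in GM15510. Of the members' median changes, 13 under 41 settings, 45 values moved by more than 0.053, the SD of array medians. Same-labelled arrays showed no broad common deviation: over 30 pairs per line the correlations ran from −0.0552 to 0.0409 and from −0.0616 to 0.097. Whether a label marks a shared culture or batch is not known here. With the replicate block the line difference gave 17 members, and the 8 dose comparisons gave 0, 0, 2, 8, 5, 2, 0 and 4. It ended the calls of NDUFV2 at 7.5 cGy in GM15036 (0.0566) and of the brighter NDUFB2 probe set at 5 cGy in GM15510 (0.056). Dim probe sets, near the added 4, carry understated changes.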
